A study of Homo sapiens with 16 samples.

Results

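Natural reverse-transcription stops and read coverage were compared between HEK293T and HCT116 cells in RNA that had not been exposed to CMC. The comparison rests on 4 libraries of the 16 in the series, 2 per cell line. It covers 18632 positions of any base, in 995 gene symbols, that stood in all 4 position tables with at least 20 covering reads in each library. A further 591 of the 19223 positions listed in all 4 tables had lower coverage, and the 8 tables read hold 575987 distinct positions in all. The 18632 positions hold 12414 distinct 31-base sequences, because rRNA, snRNA and tRNA genes have copies. Cytosolic rRNA gave 7284 of them, mRNA 6309, pseudogenes 1977, mitochondrial mRNA 1677 and mitochondrial rRNA 683.

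HEK293T is a human embryonic kidney line that carries the SV40 large T antigen, and HCT116 is a human colorectal carcinoma line. Both are labelled wild type and were grown in the same medium with serum and antibiotics. All 4 libraries are labelled as CMC-untreated polyA RNA, fragmented with magnesium before library construction. Some HCT116 table names also carry the word Lacz, which the labels do not explain. The labels do not say whether replicates came from separate cultures, so the tests measure the spread between these libraries, which may be technical. In bulk RNA, fewer cells with a transcript and less transcript per cell cannot be told apart.

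CMC is a carbodiimide that stays bound to pseudouridine and halts reverse transcriptase. Without it, cDNAs still end at some places. The enzyme stops at the 5′ end of an RNA, at a break, at a stable fold, or at a base with an added group on the face used for pairing. Known bases of the last kind are the hypermodified uridine and the dimethyladenosines of 18S rRNA, the 1-methyladenosine of mitochondrial 16S rRNA, and position 9 of many mitochondrial tRNAs. The stop percent used below is stop reads per 100 covering reads of the same library.

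HEK293T control counts carry fractions, while HCT116 control counts in the tables of the comparison are whole. What the fractions stand for, and whether both lines followed 1 rule for them, is not given in the sources used here. The HCT116 tables made without Terminator exonuclease hold the HCT116 controls with fractional counts: of the 27260 and 32821 positions in both kinds of table, the fractional covering count exceeded the whole count at 9 and 8. Wherever covering counts were equal, at 1027 and 1326 positions, stop counts were equal too. The median ratio of fractional to whole coverage was 0.126 and 0.127 in cytosolic rRNA, 0.45 and 0.454 in pseudogenes, 0.893 and 0.917 in mRNA, and 0.975 and 0.971 in long noncoding RNA. Each result is therefore also given with HCT116 counted with fractions, called matched counting below. It covers the 7180 positions with at least 20 fractional reads in both HCT116 libraries. Library totals were 19063723 and 15676713 reads in HEK293T, 27272107 and 31261781 in HCT116 as whole counts, and 8940353 and 10230136 as fractional counts.

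The median stop percent over the 18632 positions was 3.52 and 3.21 in HEK293T and 2.98 and 2.65 in HCT116. HEK293T lay above HCT116 in every library at 50.3 percent of positions, and HCT116 above HEK293T at 14.5 percent. Changes in stop ratio are therefore given relative to the library medians, as log2 of HEK293T over HCT116. A position is called where edgeR's quasi-likelihood test gave a Benjamini-Hochberg adjusted p under 0.05 and the change was at least 2-fold.

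The positions below are those on which the comparison of stops turns. The first 3 are bases known to be modified, the next 4 are uridines of mitochondrial mRNAs, the next 3 lie in mRNA 5′ UTRs, and the last is a position in RPS18. Each line gives the transcript sequence around the listed base 5′ to 3′, with the listed base in capitals.
18S rRNA nt 1249 of the annotated transcript, chr21:8210878: ttaatttgacTcaacacggga
18S rRNA nt 1851, chr21:8211480: tccgtaggtgAacctgcggaa
MT-RNR2 nt 947: tgttccttaaAtagggacctg
MT-ND2 nt 624, chrM:5093: taactatttaTattatcctaa
MT-ND1 nt 352, chrM:3658: ctcaatcctcTgatcagggtg
MT-CO2 nt 95, chrM:7680: ataatcatttTccttatctgc
MT-ND5 nt 602, chrM:12938: ccacaacaaaTagcccttcta
TPT1 nt 28, chr13:45341185: ggctgagtcgGccttttccgc
RPL36 nt 508, chr19:5690293: cgcggcgccaGcccttccgcc
HSPD1 nt 25, chr2:197499842: cctgcactctGtccctcactc
RPS18 nt 9, chr6:33275874: gaactcacTgaggatgagg
Coordinates are hg38. The TPT1 and HSPD1 positions are on the minus strand and the others on the plus strand.

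Both modified bases of 18S rRNA stopped reverse transcriptase more often in HEK293T. At nt 1249, which carries 1-methyl-3-(3-amino-3-carboxypropyl)pseudouridine, the stop percent was 15.3 and 19.2 in HEK293T and 6.15 and 5.12 in HCT116. The HEK293T values lay well above both HCT116 values. HCT116 gave 6.2 and 5.14 with fractional counts, so the counting hardly touched the ratio. The change was 1.38 ± 0.13 (log2 ± SE, n = 2 per line; edgeR, Benjamini-Hochberg adjusted p = 0.0022), and 1.31 ± 0.14 with matched counting (adjusted p = 0.0039). The position behind these ratios had 470 and 576 covering reads in HEK293T and 7890 and 12023 in HCT116. As background, reduced modification of this uridine has been reported in colorectal tumours; these data hold stops, not the modification itself.

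The bases next to it changed less. The base before it had 13.6 and 12.8 percent in HEK293T and 7.5 and 6.18 percent in HCT116, a change of 0.71 ± 0.11 (adjusted p = 0.0085) that was under 2-fold. At nt 1247 the change was 0.42 ± 0.11 (adjusted p = 0.14), at nt 1250 it was 0.44 ± 0.16 (adjusted p = 0.2) and at nt 1251 it was 0.48 ± 0.17 (adjusted p = 0.21). None of these 4 neighbours was called.

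At nt 1851 of 18S rRNA, the first of the neighbouring adenosines that DIMT1 dimethylates near the 3′ end, the stop percent was 12 and 11.3 in HEK293T and 4.02 and 3.42 in HCT116. The groups did not overlap. The change was 1.39 ± 0.15 (adjusted p = 0.0028), and 1.27 ± 0.13 with matched counting (adjusted p = 0.02). The listed bases just before it, nt 1849 and nt 1850, changed by 0.92 ± 0.18 (adjusted p = 0.068) and 0.64 ± 0.23 (adjusted p = 0.45). The dimethyladenosine was singled out after its values were seen, as the adenosine with the highest stop percent in the last 50 listed bases.

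The methyladenosine of mitochondrial 16S rRNA moved the same way by less than 2-fold. MT-RNR2 nt 947, which TRMT61B methylates in the large mitochondrial rRNA, had 12.2 and 13.8 percent in HEK293T and 6.47 and 5.15 percent in HCT116, with no overlap. Its change was 0.92 ± 0.11 (adjusted p = 0.0034), and 0.82 ± 0.13 with matched counting (adjusted p = 0.021). The adenosines at nt 945 and nt 946 changed by 0.24 and 0.29 (adjusted p = 0.45 and 0.16).

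Position 9 of mitochondrial tRNAs, where TRMT10C adds a methyl group to A or G, was listed in 7 tRNAs. None of the 7 was called. The stop percent in HEK293T was above both HCT116 values in 6 of the 7, beside 50.3 percent of all positions. MT-TQ had 33.7 and 47.8 percent in HEK293T against 21.6 and 21.1 in HCT116, MT-TN 28.5 and 34.8 percent against 21.1 and 15.4, and MT-TL1 32 and 33.8 percent against 17.9 and 22.7. Relative to the library medians these changes were 0.61 ± 0.20, 0.54 ± 0.21 and 0.41 ± 0.18 (adjusted p = 0.14, 0.38 and 0.37). MT-TF went the other way, with 18.3 and 14.2 percent in HEK293T and 18.5 and 18.9 percent in HCT116 (-0.46 ± 0.12, adjusted p = 0.12). A p that misses the threshold at this depth does not show equal stops: MT-TN had 53 and 52.3 covering reads in HEK293T, and MT-TE 50.9 and 46.3.

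Over all positions tested, 160 of 14701 (1.09 percent) were called higher in HEK293T and 338 (2.3 percent) higher in HCT116. Without the centring on library medians the split was 559 and 179. With matched counting it was 46 of 5583 (0.824 percent) and 26 (0.466 percent). Of the calls that could be tested under matched counting, 32 of 71 higher in HEK293T and 22 of 89 higher in HCT116 were called again, and none turned its direction. Those 54 positions hold 38 distinct sequences, 22 higher in HEK293T and 16 higher in HCT116. The HCT116-shDKC1 libraries without CMC, which come from HCT116 cells with a DKC1 knockdown and were not used to choose the positions, list 37 of the 38. At all 37 every shDKC1 value lay on the HCT116 side of both HEK293T values. These libraries are of the same line as HCT116 and were counted whole, like HCT116. The positions were chosen by their difference from the same HEK293T values. Such placement was therefore likely in advance and is no separate support for the calls. The share over all positions is not given here.

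**Figure D1:**
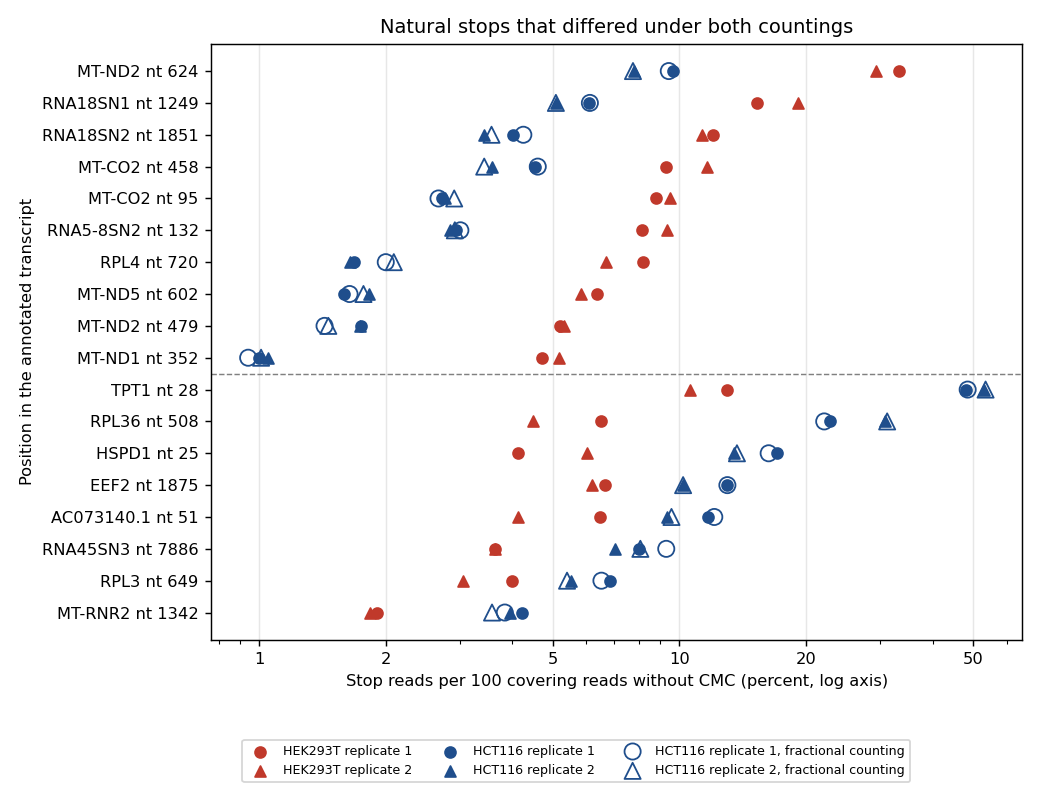
Stop percent per library (log axis) at positions called under both countings, with the 10 highest in HEK293T above the dashed line and the 8 highest in HCT116 below it. Filled symbols are the counts of the comparison and open symbols the HCT116 libraries counted with fractions. The 2 lines do not overlap at any position shown, and the hypermodified uridine of 18S rRNA (RNA18SN1 nt 1249) sits at 15.3 and 19.1 percent in HEK293T.

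Mitochondrial mRNAs, which encode subunits of the respiratory chain, held calls in both directions. Of 1596 positions tested 38 were called higher in HEK293T and 33 higher in HCT116. By base, the calls toward HEK293T and toward HCT116 were 24 and 11 of 764 uridines, 9 and 7 of 422 adenosines, 3 and 10 of 248 cytidines, and 2 and 5 of 162 guanosines. Of the 12 mitochondrial mRNA positions called under both countings, 11 were higher in HEK293T, and 10 of those 11 were uridines. Among all mitochondrial mRNA uridines tested with matched counting, 11 of 375 were called higher in HEK293T (2.93 percent) and 1 was called higher in HCT116. Among the mitochondrial mRNA adenosines 1 of 144 was called and among the cytidines 1 of 96, both higher in HEK293T. The shares were not tested against each other.

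MT-ND2 nt 624 had the strongest of these stops. It had 33.3 and 29.4 percent in HEK293T, on 51.9 and 55.5 covering reads, and 9.65 and 7.78 percent in HCT116. Every HEK293T value was at least 3 times every HCT116 value. The change was 1.57 ± 0.18 (adjusted p = 0.0031), and 1.51 ± 0.13 with matched counting (adjusted p = 0.0042). MT-ND1 nt 352 had 4.7 and 5.18 percent in HEK293T and 1 and 1.05 percent in HCT116, a change of 2.00 ± 0.23 (adjusted p = 0.0029; 2.01 with matched counting, adjusted p = 0.0016). Both mRNAs encode subunits of complex I.

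MT-CO2, which encodes a cytochrome c oxidase subunit, held 3 such uridines. At nt 95 the stop percent was 8.8 and 9.48 in HEK293T and 2.72 and 2.76 in HCT116, and at nt 458 it was 9.31 and 11.6 against 4.53 and 3.57. The changes were 1.46 ± 0.16 and 1.12 ± 0.17 (adjusted p = 0.0029 and 0.0075). MT-ND5 nt 602, in another complex I mRNA, had 6.36 and 5.83 percent in HEK293T and 1.59 and 1.82 percent in HCT116, a change of 1.52 ± 0.24 (adjusted p = 0.018). The exception was MT-ND4 nt 1011, a uridine with 1.52 and 1.36 percent in HEK293T and 2.42 and 2.5 percent in HCT116 (-1.05 ± 0.18, adjusted p = 0.019). MT-ND4 nt 496, a uridine, and nt 1188, an adenosine, were higher in HEK293T, with changes of 1.42 and 1.21. The call at nt 496 was lost without HCT116 replicate 2 or HEK293T replicate 1, and that at nt 1188 without HEK293T replicate 2. Leaving out any 1 of the 4 libraries ended the MT-ND5 nt 602 call. The MT-ND4 nt 1011 call was lost without HCT116 replicate 2 or either HEK293T replicate. The MT-CO2 nt 458 call was lost without HEK293T replicate 2, whereas the calls at MT-ND2 nt 624 and MT-CO2 nt 95 held without each library in turn.

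Some positions in mRNA 5′ UTRs had stronger stops in HCT116. Of 198 tested positions in annotated 5′ UTRs, 9 were called (4.55 percent), all of them higher in HCT116, beside 5.41 percent of 1295 coding positions higher in HCT116 and 1.39 percent higher in HEK293T. With matched counting 3 of 37 5′ UTR positions were called, again all higher in HCT116, and 2 of 385 coding positions. The 3 are in TPT1, RPL36 and HSPD1.

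TPT1 encodes the translationally controlled tumour protein, and its mRNA begins with the oligopyrimidine tract typical of the translation machinery. At nt 28, in exon 1 and 27 bases past an annotated start, the stop percent was 13 and 10.6 in HEK293T and 48 and 53.1 in HCT116. The gap between the lines was far larger than that within them. The change was -2.43 ± 0.25 (adjusted p = 0.0024), and -2.51 ± 0.19 with matched counting (adjusted p = 0.0011). HEK293T had 33.3 and 47 covering reads and HCT116 had 50 and 81.

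RPL36 encodes a large-subunit ribosomal protein. At nt 508, in a 5′ UTR exon and 97 bases past the nearest annotated start, its stop percent was 6.49 and 4.47 in HEK293T and 22.8 and 30.9 in HCT116. The change was -2.60 ± 0.26 (adjusted p = 0.0023), and -2.63 ± 0.25 with matched counting (adjusted p = 0.0022). HSPD1, the mitochondrial chaperonin HSP60, had 4.12 and 6.04 percent in HEK293T and 17.1 and 13.5 percent in HCT116 at nt 25 (-1.74 ± 0.29, adjusted p = 0.012). HCT116 was higher in both libraries at each of these 3 positions. The RPL36 call held without each of the 4 libraries in turn. TPT1 and HSPD1 kept enough stop reads for a test in 2 of the 4 cases. The TPT1 call held in both, and the HSPD1 call was lost without HEK293T replicate 1.

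Other mRNA positions went both ways. RPS18 encodes a small-subunit protein. Its nt 9, which GENCODE places in a noncoding exon, had 5.4 and 4.46 percent in HEK293T and 0.883 and 1.2 percent in HCT116 (1.92 ± 0.26, adjusted p = 0.0047). RPL4 nt 720, in a large-subunit protein mRNA, had 8.19 and 6.68 percent in HEK293T and 1.68 and 1.64 percent in HCT116 (1.88 ± 0.23, adjusted p = 0.0041). EEF2, elongation factor 2, held calls in opposite directions: at nt 2446 HEK293T had 4.74 and 4.2 percent and HCT116 1.71 and 0.688 percent, and at nt 1875 HEK293T had 6.66 and 6.19 percent and HCT116 13 and 10.2 percent. The EEF2 changes were 1.73 ± 0.31 and -1.08 ± 0.13 (adjusted p = 0.016 and 0.0041). The call at nt 2446 was lost without HCT116 replicate 2, and that at nt 1875 without HCT116 replicate 1.

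rRNA outside the named bases also went both ways. RNA5-8SN2 nt 132, a guanosine of 5.8S rRNA at chr21:8212703, had 8.14 and 9.32 percent in HEK293T and 2.94 and 2.84 percent in HCT116 (1.35 ± 0.13, adjusted p = 0.0022). In the 28S rRNA, nt 4507 of RNA28SN3 was higher in HEK293T, with 2.11 and 1.94 percent against 0.656 and 0.748 (1.25 ± 0.18, adjusted p = 0.0065). RNA45SN3 nt 7886, a precursor position, was higher in HCT116, with 7.99 and 7.02 percent against 3.63 and 3.63 (-1.31 ± 0.14, adjusted p = 0.0025). In MT-RNR2, nt 1342 was higher in HCT116, with 4.23 and 3.96 percent against 1.91 and 1.83 (-1.38 ± 0.10, adjusted p = 0.0014), and nt 385 was higher in HEK293T, with 3.43 and 3.74 percent against 1.33 and 1.08 (1.32 ± 0.15, adjusted p = 0.003). Of the 7 mitochondrial rRNA positions called under both countings, 5 were higher in HCT116 and 2 in HEK293T.

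Several of the largest changes moved with the counting. RPSA, the laminin receptor and small-subunit protein, had 1.24 and 1.06 percent in HEK293T and 6.57 and 6.53 percent in HCT116 at nt 877 (-2.77, adjusted p = 0.0017), but 1.42 percent in the 1 HCT116 library that lists it with fractions. RPS2 nt 90 had 1.13 and 0.946 percent in HEK293T, 5.95 and 4.86 percent in HCT116 and 1.95 and 1.37 percent with fractions. RPL12 nt 104 had 0.94 and 1 percent in HEK293T, 4.59 and 4.08 in HCT116 and 2.14 in 1 library with fractions. RPL4 nt 348 had 6.74 and 7.52 percent in HCT116 and 2.78 with fractions, against 1.36 and 1.32 in HEK293T, and RPL31 nt 136 had 7.96 and 5.16 percent and 1.53 with fractions, against 1.18 and 0.985. Ribosomal protein genes have many processed pseudogenes, and the fractional values of these 5 lay between those of HEK293T and the whole-count values of HCT116.

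The other large changes could be tested under 1 counting only. MTND4P12, a nuclear copy of MT-ND4, had 0.985 and 1.07 percent in HEK293T and 8.15 and 10 percent in HCT116 at nt 967 (-3.41, adjusted p = 0.0022; 9.09 percent with fractions in 1 library). MT-RNR2 nt 478 had 0.28 and 0.377 percent against 2.07 and 2.04 (-2.97, adjusted p = 0.0022), and 2.1 percent with fractions. RPS4X had calls in opposite directions: nt 29 had 6.38 and 4.71 percent in HEK293T and 20 and 32.1 percent in HCT116 (-2.53, adjusted p = 0.0039), and nt 234 had 5.16 and 4.97 percent against 0.81 and 1.08 (2.09, adjusted p = 0.012). The call at nt 29 held without each library in turn, and that at nt 234 was lost in both cases that could be tested, without either HCT116 replicate.

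Among those higher in HEK293T, MTRNR2L1 nt 1333, in a nuclear copy of the mitochondrial 16S gene, had 14.3 and 14.3 percent in HEK293T and 1.21 and 1.31 percent in HCT116 (3.18, adjusted p = 0.0016). MT-RNR2 nt 1318 had 2.92 and 2.5 percent against 0.514 and 0.37 (2.36, adjusted p = 0.0014). AC051619.8 nt 205 had 28 and 23.7 percent against 4.84 and 3.3 (2.42, adjusted p = 0.0041). The sequence around that base has 3 copies, and the position carries another symbol in some table. Which RNA gave the AC051619.8 stops, and whether the base is modified, was not tested. EEF2 nt 2477, RPS2 nt 164, MTCO1P12 nt 1138 and RNA28SN2 nt 2439 had changes of 2.23, 2.01, 2.06 and 1.97. The EEF2 nt 2477 call was lost without HCT116 replicate 2, and the RNA28SN2 nt 2439 call without HEK293T replicate 2. Copies of one sequence in several genes share reads, so nuclear copies of mitochondrial genes and their sources are not independent.

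None of the 10 strongest natural stops was called. RACK1, a scaffold protein of the small ribosomal subunit, had 69.1 and 75.4 percent in HEK293T and 82.8 and 76.6 percent in HCT116 at nt 239, on 21.7 to 47 covering reads (-0.45 ± 0.16, adjusted p = 0.47). An alanine tRNA, tRNA-Ala-CGC-4-1, had 57.9 and 53.4 percent against 58.6 and 57.8 at nt 36 (-0.35, adjusted p = 0.64). SLC25A5, the mitochondrial ADP/ATP carrier, had 43.7 and 51.4 percent against 62.9 and 61.2 at nt 21 (-0.65, adjusted p = 0.16). MT-TS1 nt 34 had 43.2 and 42.7 percent against 44 and 37.5, and MT-TL2 nt 9 had 43.8 and 40.3 percent against 38.5 and 27.9. The others of the 10 highest were AC091153.1, RPS2P46, RPLP0P6, MTATP6P2 and MTCO2P12, with changes between -0.49 and -0.21. The lines did not overlap at RACK1, SLC25A5, MTATP6P2 and MTCO2P12, where HCT116 was higher in every library. At MT-TL2 they did not overlap either, with HEK293T higher. The lines overlapped at tRNA-Ala-CGC-4-1, MT-TS1, AC091153.1, RPS2P46 and RPLP0P6. A missed threshold on so few reads does not show that they were equal.

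Summed per gene, few natural stop ratios were called. Of 681 genes 12 were called higher in HEK293T (1.76 percent) and 2 higher in HCT116 (0.294 percent). The 12 include 7 copies of U1 snRNA, which share their reads and stand for 1 sequence, with 10.7 to 11.9 percent in HEK293T and 4.64 to 5.06 percent in HCT116. MT-TA, the mitochondrial alanine tRNA, had 15.7 and 18.2 percent in HEK293T and 8.05 and 7.58 percent in HCT116 (1.06 ± 0.16, adjusted p = 2.76e-05), with 0.69 under matched counting (adjusted p = 0.061); its call was also lost without HEK293T replicate 2. MT-TH had 8.55 and 5.72 percent against 3.4 and 3.06 (1.12, adjusted p = 0.024), with 0.75 under matched counting (adjusted p = 0.27). HNRNPL, which encodes a splicing regulator, was among those higher in HCT116, with 3.79 and 3.28 percent in HEK293T and 8.33 and 7.81 percent in HCT116 (-1.24 ± 0.23, adjusted p = 0.013). The HNRNPL call was lost without any 1 library. With matched counting 0 of 275 genes were called higher in HEK293T by edgeR (0 percent, with 51 at an unadjusted p under 0.05) and 2, HSPD1 and YWHAZ, higher in HCT116 (0.727 percent). In both directions together 45 of the 275 had an adjusted p under 0.05, most with a change under 2-fold. HSPD1 rests there on the 1 position given above; over its 11 positions the change was -0.31.

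Coverage per gene gave more calls than stops. Covering reads summed over a gene's positions were called higher in HEK293T for 140 of 995 genes (14.1 percent) and higher in HCT116 for 240 (24.1 percent). With library totals in place of TMM scaling the split was 308 and 164, since the median log2 change moved from -0.03 to 0.46. With matched counting 27 of 396 genes (6.82 percent) were higher in HEK293T and 51 (12.9 percent) higher in HCT116. Levels below are scaled covering reads per position, that is, the mean over a gene's positions after TMM scaling to one library size.

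The direction of the calls differed between classes of RNA. Of 543 mRNA genes 134 were higher in HEK293T and 26 higher in HCT116, with a median log2 change of 0.54. All 13 cytosolic rRNA genes, 12 of 22 snRNA genes, 20 of 25 other small RNA genes and 129 of 302 pseudogenes were higher in HCT116. With matched counting, which covers fewer genes, mRNAs had 19 against 13 of 212, with a median of 0.23, and pseudogenes had 6 against 4 of 93. Over all classes, only 35 of the 140 genes called higher in HEK293T could be tested with matched counting. The loss of genes and the change of counting are therefore not separated in these class counts. Cytosolic rRNA genes then had a median change of -1.03, in place of -3.65, and 10 of 13 were still called. rRNA and snRNAs lack poly(A) tails, and the part of poly(A) selection in these differences was not tested.

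**Figure D2:**
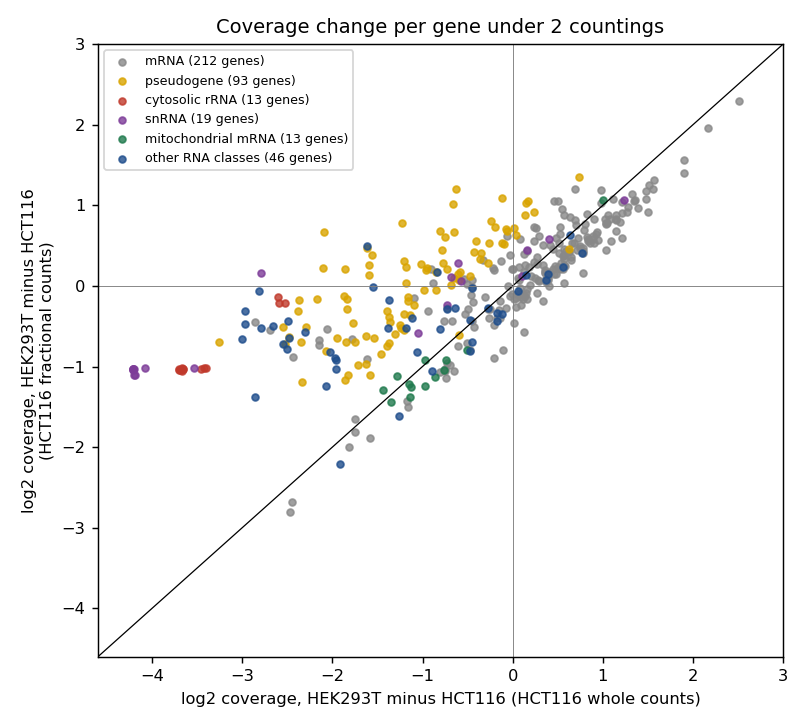
Each point is a gene, with its log2 coverage change from whole HCT116 counts on the x axis and from fractional HCT116 counts on the y axis; the diagonal marks equal values. Genes such as RNU1-1 (-4.21 and -1.05) and RNA18SN1 (-3.67 and -1.02) lie far left of the diagonal.

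CKB, the brain-type creatine kinase that buffers ATP, had the largest change toward HEK293T. Its level over 30 positions was 456 and 491 in HEK293T and 76.6 and 89.9 in HCT116, and the groups were far apart. The change was 2.51 (adjusted p = 1.48e-10), and 2.29 ± 0.09 with matched counting over 9 positions (adjusted p = 1.85e-06). HNRNPU, a nuclear matrix and splicing protein, had 221 and 202 against 48.1 and 46.1 (2.17; 1.96 with matched counting). ARF1, a GTPase of Golgi transport, had 178 and 168 against 41.5 and 50.5 (1.91; 1.40 with matched counting). The 12 named genes higher in HEK293T also include SERBP1, HNRNPM, C1QBP, DDX17, GLO1, ACLY, SNRPB and EWSR1, with changes from 2.29 to 1.64, and none of these 8 had a position in the matched counting. C1QBP is a mitochondrial matrix protein, GLO1 detoxifies methylglyoxal and ACLY makes acetyl-CoA for lipid synthesis.

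Of the 58 genes called under both countings, 16 were higher in HEK293T. They also include PRKDC, the catalytic subunit of the DNA repair kinase DNA-PK (92 and 87.9 against 32.1 and 28.7), and NCL, the nucleolar protein nucleolin (171 and 163 against 66.1 and 53.8). Their changes were 1.57 and 1.48. RACK1, with the strong stop described above, had 503 and 554 against 187 and 225 (1.36; 1.07 ± 0.09 with matched counting). ATP5MC2 and UQCRQ, which encode subunits of ATP synthase and of complex III, had changes of 1.51 and 1.56, and SLC25A5 one of 1.32. CNBP, SET, SRSF2, TAF15, MT-ND6 and RNU12 were also among the 16. The TAF15 call was lost without HEK293T replicate 1. The minimum of 20 reads in each library bounds how low a gene of few positions could be measured.

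Of the 42 genes higher in HCT116 under both countings, EZR and AKAP12 had the largest changes among mRNAs. EZR, ezrin, which ties the membrane to actin in epithelial microvilli, had 34.6 and 34.8 in HEK293T and 193 and 184 in HCT116 (-2.44; -2.68 ± 0.15 with matched counting). AKAP12, a scaffold for protein kinase A, had 32.8 and 26.2 against 161 and 168 at its 1 position (-2.47; -2.81 with matched counting). MALAT1, a nuclear long noncoding RNA, had 85.1 and 81.9 against 280 and 350 over 57 positions (-1.92; -2.20 with matched counting). In each of the 3 the lowest HCT116 value was more than 3 times the highest in HEK293T.

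Ferritin mRNAs, whose products store iron, were higher in HCT116 as a pair. FTL had 55.6 and 53.7 against 185 and 200 (-1.82; -1.99 with matched counting), and FTH1 had 121 and 118 against 383 and 418 (-1.75; -1.65 with matched counting). HMGA1, a chromatin protein, had 64.4 and 65.3 against 192 and 245 (-1.75), TMSB10, an actin-binding thymosin, had 147 and 138 against 420 and 433 (-1.58), and SCD, the stearoyl-CoA desaturase, had 75.7 and 68.7 against 163 and 162 (-1.17). FSCN1, the actin bundler fascin, had 29.9 and 45.6 against 92.5 and 77.9 (-1.16), and its call was lost without HEK293T replicate 1. FTH1P20 and FTLP3, processed copies of the ferritin genes, were called as well and share reads with their sources.

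Of the 13 mitochondrial mRNAs 6 were called higher in HCT116 and 1 in HEK293T, beside 24.1 and 14.1 percent of all genes. With matched counting 9 and 1 were called, beside 12.9 and 6.82 percent. MT-CO3, which encodes a cytochrome c oxidase subunit, had 577 and 651 in HEK293T and 1418 and 1700 in HCT116 over 147 positions (-1.34; -1.44 ± 0.12 with matched counting). MT-ATP6, MT-CO1, MT-CO2, MT-ND4 and MT-ATP8 had changes of -1.44, -1.28, -1.13, -1.14 and -1.15. MT-ND6, the 1 mitochondrial mRNA encoded on the light strand, went the other way, with 125 and 111 against 61 and 56.7 (1.00; 1.07 with matched counting at 1 position). The MT-ND4 call was lost without HCT116 replicate 2, and the MT-ND6 call without HCT116 replicate 2 or HEK293T replicate 1.

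**Figure D3:**
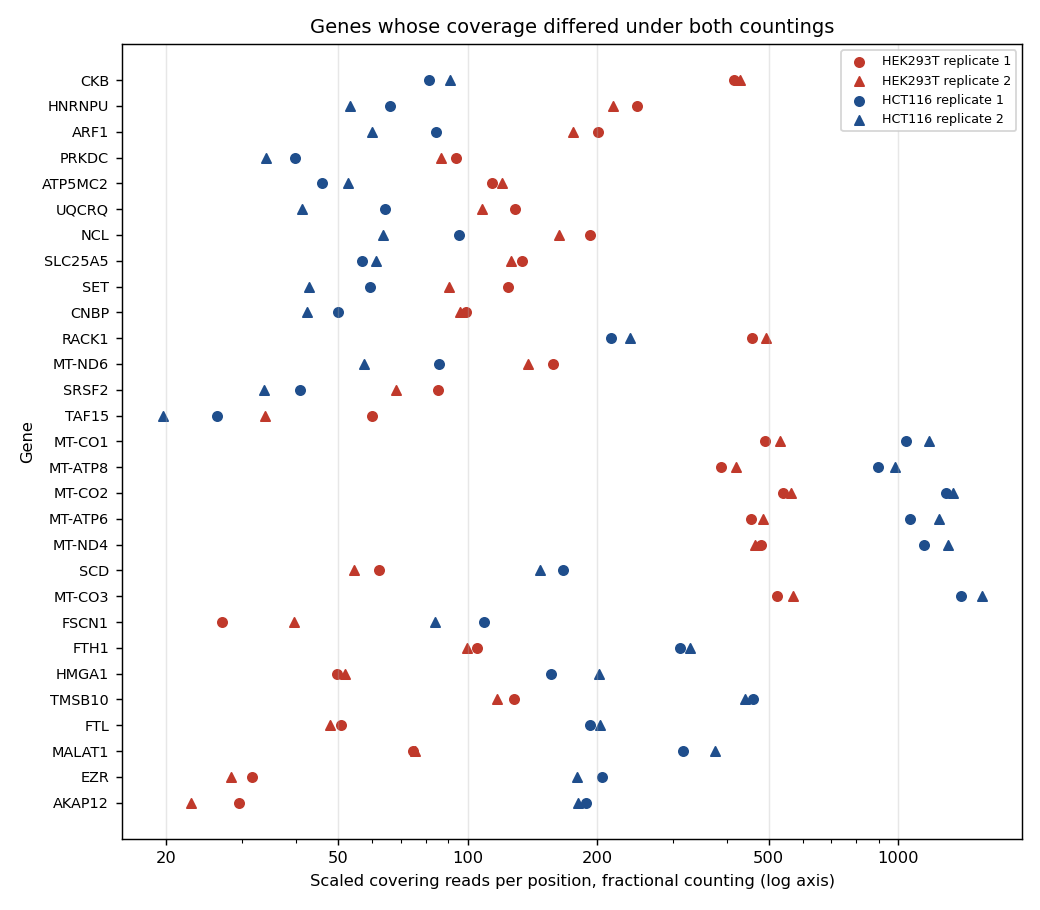
Scaled covering reads per position (log axis, fractional counting) in each library for mRNAs and the long noncoding RNA that were called under both countings and are reported here, ordered by change. CKB stands at 415 and 430 in HEK293T against 81.4 and 91 in HCT116, and the lines do not overlap for any gene shown.

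The 12 named genes higher in HCT116 were all U1 snRNA or rRNA copies, and their size moved with the counting. RNU1-1, a copy of the U1 spliceosomal RNA, had 24.7 and 26.1 in HEK293T and 469 and 470 in HCT116 (-4.21), but 22.1 and 22.7 against 47.4 and 45.6 with matched counting (-1.05 ± 0.13). RNA18SN1 had 684 and 904 against 9421 and 10762 (-3.67), and 610 and 787 against 1378 and 1450 with matched counting (-1.02 ± 0.17). HCT116 was thus about 2-fold higher for both with fractional counts, and the groups did not overlap under either counting. SNORD3A, the U3 snoRNA used in rRNA processing, had a change of -1.96, and -1.03 with matched counting.

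Among the gene lists, splicing factors held the most calls toward HEK293T. Of 22 tested, 17 were called higher in HEK293T and 0 higher in HCT116, with a median log2 change of 1.38. Among all mRNA genes 24.7 percent were called higher in HEK293T and 4.79 percent higher in HCT116, with a median of 0.54. Over genes of every class the shares were 14.1 and 24.1 percent, with a median of -0.03. The 3 largest changes among the splicing factors were HNRNPU (2.17), HNRNPAB (2.13, 119 and 124 against 32.1 and 24.1) and HNRNPM (2.06, 140 and 143 against 32.1 and 35.6). SRSF1, an SR protein that marks exons, had 86.9 and 86.9 against 31.3 and 24.1 (1.66). HNRNPA2B1 had 224 and 211 against 89.9 and 76.9 (1.38; 0.96 and not called with matched counting). With matched counting 2 of 5 splicing factors were called higher in HEK293T, beside 8.96 percent of mRNA genes. All 5 had a positive change, with a median of 0.96, beside 0.23 for mRNA genes. A further 13 splicing factors, among them SFPQ, HNRNPH1 and U2AF2, had positions of at least 20 reads in both HEK293T tables but not in both HCT116 tables. With fractional counts HNRNPH1 had 11 such positions in HCT116, SRSF5 and SRSF6 3 each, and SFPQ and SRSF7 1 each.

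Of 4 DNA replication and cell cycle genes tested, 3 were called higher in HEK293T, beside 24.7 percent of all mRNA genes. MCM2 and MCM7, subunits of the replicative helicase, had changes of 1.83 and 1.64 at 1 position each, and CDK4 had 1.21 (0.90 and not called with matched counting). MCM2 had 96.2 and 98.5 against 29.1 and 25.7. CDC20, an activator of the anaphase-promoting complex, was not called, with 69.9 and 33.1 against 34.2 and 29.7 (0.70), and its groups overlapped. Of the 34 genes of this list 20 were listed for HEK293T alone, among them MCM3, MCM4, MCM5, TOP2A, UHRF1 and DNMT1. CCND1, which encodes cyclin D1, was the 1 gene of the list listed for HCT116 alone, with 31 positions. The HEK293T tables list 217511 and 234168 positions, against 113370 and 103050 for HCT116, so absence from the HCT116 tables is the commoner kind, and absence from a table is not absence of reads.

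Of 20 translation factors 4 were called higher in HEK293T, led by EIF4G1 (1.64, 98 and 99.8 against 31.9 and 31.7), EIF2S3 (1.33) and EIF5A (1.19; 0.80 and not called with matched counting), and 1, EEF1A1, higher in HCT116 (-1.62; -0.91 with matched counting). All 12 glycolytic enzymes tested had an adjusted p under 0.05 and a change under 2-fold, so 0 were called by edgeR. Of the 12, 10 had a positive change, with a median of 0.78; LDHA had 171 and 163 against 89.1 and 90.1 (0.90) and GAPDH 346 and 389 against 483 and 505 (-0.42). With matched counting 1 glycolytic gene was called in each direction, of 8. Of 17 actin and tubulin genes TAGLN2 (1.56) and TUBB4B (1.03, 0.76 and not called with matched counting) were called higher in HEK293T and EZR and TMSB10 higher in HCT116. With matched counting 1 of 10 actin and tubulin genes was called higher in HEK293T and 3 higher in HCT116, with a median of -0.07. Of 14 chaperones PDIA6 (1.26) and CANX (1.19), both of the endoplasmic reticulum, were called higher in HEK293T. With matched counting 1 of 8 chaperones was higher in HCT116. Over all mRNA genes 24.7 percent were called higher in HEK293T and 4.79 percent higher in HCT116. None of the lists in this paragraph exceeded the first share. With matched counting the mRNA shares were 8.96 and 6.13 percent.

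Iron, lipid and histone genes held single calls beside those already given. PRDX6, a peroxidase, had 152 and 140 against 39.2 and 50.3 (1.69), against FTL and FTH1 in the other direction, and 9 of the 12 iron and redox genes were not called. ACLY (1.73) and SCD (-1.17) were called in opposite directions among 5 lipid genes, and FASN, the fatty acid synthase, had 104 and 108 against 79.2 and 83.1 (0.39, adjusted p = 0.002, under 2-fold). H1FX, a linker histone, was the 1 of 7 histone genes called (1.67). Beside these lists, 24.7 percent of all mRNA genes were called higher in HEK293T and 4.79 percent higher in HCT116. Of 3 nucleolar genes tested NCL was called, and 11 of that list, with DKC1, NOP56 and NOP58 among them, were listed for HEK293T alone. Of 10 nuclear and long noncoding RNAs the 7SL RNAs RN7SL1 (-1.96) and RN7SL2 (-1.97) and MALAT1 were higher in HCT116. With matched counting only MALAT1 of 6 was called. Over all genes the shares called higher in HCT116 were 24.1 percent and, with matched counting, 12.9 percent.

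**Figure D4:**
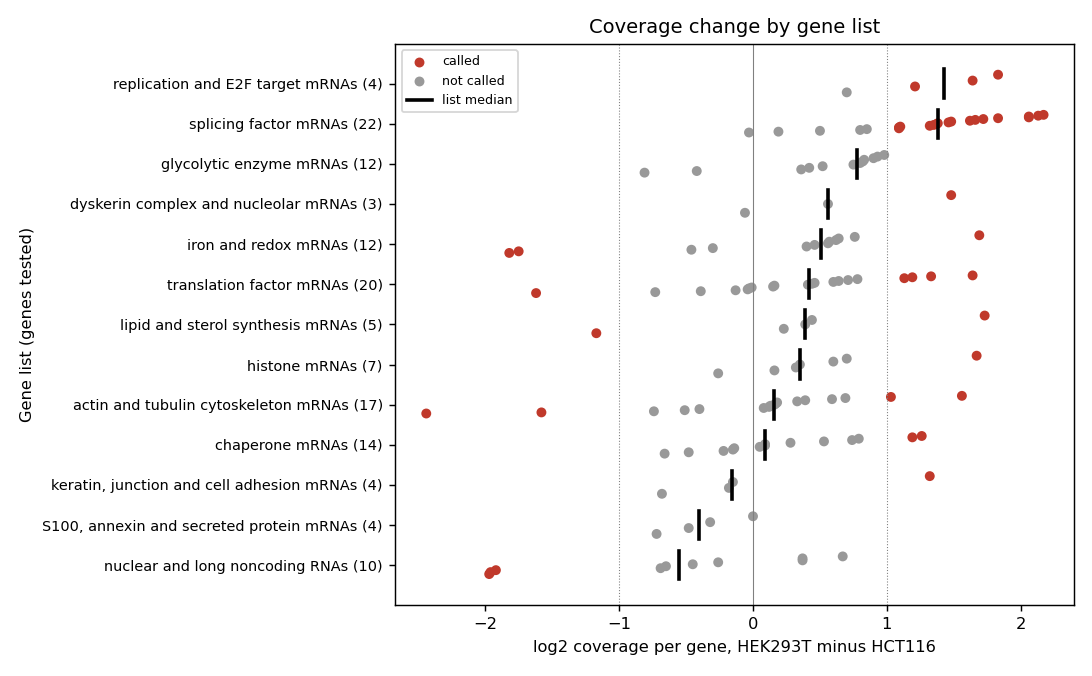
Each point is a tested gene at its log2 coverage change (HEK293T minus HCT116, x axis), grouped by list, with called genes in red and the list median as a bar; dotted lines mark 2-fold. Splicing factors have 17 of 22 genes called to the right, and ferritin, ezrin and thymosin mRNAs stand apart to the left.

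The markers fixed for each line were checked by their listing, which also depends on the libraries treated with CMC. The share of all genes listed for 1 line alone is not given here. Of 34 colonic epithelial markers 13 had positions in both HCT116 tables and 0 in both HEK293T tables. KRT8, KRT19 and KRT18, keratins of simple epithelia, had 193, 87 and 78 positions, and the medians over the KRT8 positions were 192 and 268 covering reads. EPCAM, an epithelial adhesion protein, had 3 positions, with medians of 32 and 49 reads, and SPINT2, a protease inhibitor of epithelia, had 48. CLDN3, ESRP1 and ST14 had 1 position each. With fractional counts 12 of the 13 were still listed, ESRP1 being the exception.

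Of 38 embryonic, renal and neural markers 10 were listed for HEK293T alone and 0 for HCT116 alone. Lists that are not markers of a line were often split the same way, and the HEK293T tables list more positions. HEK293T alone and HCT116 alone had 20 and 1 of 34 replication genes, 11 and 0 of 24 nucleolar genes and 13 and 0 of 35 splicing factors. The S100, annexin and secreted list went the other way, with 0 and 10 of 34. VIM, the intermediate filament of mesenchymal cells, had 201 positions in HEK293T, with medians of 137 and 130 covering reads, and 0 in HCT116. MARCKSL1 had 138 positions, MARCKS 58, IGF2BP1, a fetal RNA-binding protein, 57, and GAL, a neuropeptide, 48. SOX4, SOX12, ZIC2, HOXB9 and HOXA9, transcription factors of development, had 36, 22, 11, 9 and 4. HOXA9 had 1 position in HCT116 when counted with fractions. CKB had 359 positions in HEK293T and 32 in HCT116. TUBB2B and TUBB3, neural tubulins, had 1 each in HEK293T and 6 and 5 in HCT116, where fractional counts left 0 and 1. STMN1 had 6 positions in HEK293T and 1 in HCT116, but 12 in HCT116 with fractional counts. Of 18 markers of other cell types only GFAP was listed, with 3 positions in HCT116 and 0 when counted with fractions.

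**Figure D5:**
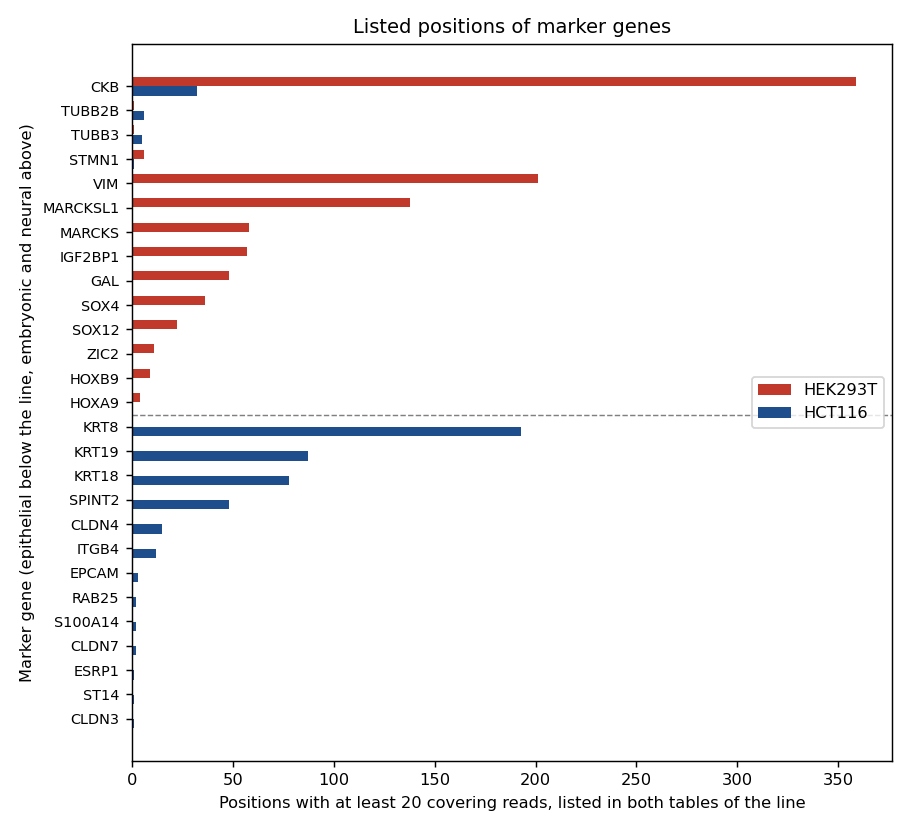
Bars give the number of positions with at least 20 covering reads in both tables of a line, for each listed marker gene. The 13 epithelial markers below the dashed line have bars for HCT116 alone, and 10 of the 14 markers above it have bars for HEK293T alone.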

How the data were processed

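Stop and covering reads per position were taken from the control columns of the deposited tables. The submitters' processing notes name cutadapt 2.8, STAR without a version, and the hg38 build. The deposited HCT116 control columns are counts (every value is whole), and the deposited HEK293T control columns are expected counts with fractions, which were rounded for the fits. How the authors treated reads that match several places is not given in the sources used here. The deposited stop ratio is the fraction of stop over covering reads, and the deposited RPM values served to recover library totals. The values show what a listing took: 5 stop reads after CMC, 1 in the control, and a ratio after CMC no lower than the control's. Listing therefore depends on treated libraries as well.

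Counts were fitted with edgeR 4.0.16 (glmQLFit, glmQLFTest) in R 4.3.3, on the 4 libraries with cell line as the only term. Coverage was summed per gene symbol and scaled by TMM. Stop reads had an offset of log covering reads plus the log of the library's median stop ratio. Tested features had at least 10 reads in at least 2 libraries, and p-values were adjusted over all features tested. Symbols are those of the first HEK293T table; 1087 positions carry another symbol in some table. Regions come from GENCODE 29. On simulated counts with 3-fold changes in the real design, 98 percent of changed genes (coverage, 995 genes), 55.3 percent of changed positions and 78.8 percent of changed genes (stops) were recovered. Of the calls made there, 0, 6.32 and 2.46 percent were false. The simulation gave every feature the same assumed dispersion, not one estimated from these libraries, so recovery in the real data may differ.

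The genes named were the 12 largest coverage changes in each direction (at least 3 positions, mean of at least 50 covering reads per position in the higher line, no overlap), the 10 largest stop changes in each direction and the 10 strongest stops (1 per sequence and symbol), the 5 largest stop changes per gene, the 3 largest calls of each gene list, and bases known to be modified. Genes and positions called under both countings were added after the counting difference was seen, and SRSF1, HNRNPA2B1, LDHA, GAPDH and FASN were picked from their lists after their values were seen. Members and lists were chosen with earlier results of these data known. No label pairs a library of 1 line with a library of the other, so no pairing was used. The deviations of same-numbered libraries correlated at 0.24 for coverage and 0.04 for stops, which cannot decide whether they were paired. Alternatives were DESeq2 1.42.0, other filters, scalings and centring, unique sequences, each library left out, and, chosen after seeing the data, matched counting, whole counts at its positions, and positions where the fractional count was at least 0.9 of the whole. A few genes that these rules name are not reported here.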

Additional observations from a re-analysis of the deposited data

How the results depend on the processing

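Under 17 alternatives, 289 named log2 changes gave 3512 values. None of them turned the direction of a call, 3191 kept their side of the threshold, 221 lost a call and 100 gained one. DESeq2 lost 46 calls. Coverage calls higher in HEK293T and in HCT116 were 90 and 157 with sequences found once, 83 and 122 with at least 3 positions per gene, 76 and 123 with at least 50 covering reads, 27 and 51 with matched counting, 87 and 92 with whole counts at the same positions, and 10 and 29 at positions with unshared reads; fewer genes were tested in each. Library totals gave 308 higher in HEK293T. Leaving out 1 library gave 138 to 147 and 237 to 244.

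Stop calls per position were 96 and 167 with sequences found once, 33 and 61 with DESeq2, 559 and 179 without centring, 46 and 26 with matched counting, 62 and 137 with whole counts at those positions, and 14 and 18 at positions with unshared reads. Leaving out 1 library gave 40 to 142 and 137 to 173, the lowest without HEK293T replicate 2. Stop calls per gene were 5 higher in HEK293T with sequences found once, 3 and 0 with DESeq2, 3 higher in HEK293T with at least 50 covering reads, 4 and 1 without centring, 0 higher in HEK293T with matched counting, 0 and 4 with whole counts at those positions, 0 and 0 with unshared reads, and 4 higher in HCT116 with no minimum of reads. Leaving out 1 library gave 3 to 5 and 1 to 2.

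With the replicate number as a block, the counts were 140 and 239 for coverage, 173 and 345 for stops per position and 12 and 2 per gene. No named call changed. The labels do not say that the numbers pair the samples.

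Having 2 libraries per line limits every test, and the simulated recovery was lowest for single positions. Coverage of 20 to 50 reads in one library leaves a stop percent uncertain by counting error alone, so positions with few covering reads, such as RACK1 nt 239, carry wide error. The cause of the counting difference between tables was not tested.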

Other observations

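Most secreted and immune genes had no position in all 4 tables, so their listing is given instead of a test of coverage. Listing also depends on the libraries treated with CMC. The share of all genes listed for 1 line alone is not given here. Of 34 S100, annexin and secreted protein genes 10 were listed for HCT116 alone and 0 for HEK293T alone. S100A6, a calcium-binding protein, had 52 positions with medians of 242 and 348 covering reads, ANXA2, a membrane-binding annexin, had 48 with medians of 144 and 170, and LGALS1, a galectin, had 25 with medians of 137 and 187. Of the 4 genes of this list that could be tested, 0 were called by edgeR. Among these 4, 1 had an adjusted p under 0.05 with a change under 2-fold.

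Of 28 antigen presentation and interferon genes 5 were listed for HCT116 alone and 0 for HEK293T alone. HLA-B, a heavy chain of class I molecules, had 5 positions, and IFITM3, an antiviral membrane protein, had 9. HLA-C was listed for both lines. With fractional counts HLA-B and IFITM1 were not listed for HCT116.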
